A study of Brassica oleracea with 12 samples.

Results

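SWEET proteins form a family of membrane carriers that let sugars move down their concentration gradient across the plasma membrane or an inner membrane. In Arabidopsis leaves, SWEETs of the phloem parenchyma release sucrose to the cell wall space, from which proton-coupled sucrose symporters load it into the phloem. Other members carry hexoses, sit on the vacuole membrane or serve nectaries, pollen and seeds. The SWEET genes described here came from a kale leaf FPKM table (fragments scaled by transcript length and library size). Entries were taken if the product description names SWEET, and the selection rule also named Bo5g034370 by its identifier. Each had to reach 1 FPKM in at least 3 of 12 libraries. Of 45714 entries, 13 were taken in this way and 10 passed this filter, so that a limit of 10 on the number kept left none out.

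The leaves came from an ornamental kale (Brassica oleracea var. acephala) of cultivar JC007-2B, in 4 groups of 3 libraries, and the labels state no treatment, introduced gene or plant age. S1 was the whole leaf at a red stage, S2 the whole leaf once red lies at the center and the margin is green, S3_S the green margin of leaves at stage S3 and S3_C their red center. Veins were removed from the whole leaves of S1 and S2, and the labels state no such step for the S3 parts. Nothing in the labels ties replicates to separate plants, so p-values measure the spread between these libraries, which may be technical.

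Groups were not cleanly separated. Across the 27272 entries that passed the same filter and were tested, log2(FPKM + 1) correlated at r = 0.749 to 0.935 within groups (12 pairs) and at 0.645 to 0.952 between groups (54 pairs), over entries that are not independent replicates. For 10 of the 12 libraries, all but S1 replicates 2 and 3, the most similar library belonged to another group. S1 replicate 1 lay closest to S2 replicate 2 (r = 0.941) and had the lowest correlations within a group (0.749 and 0.761). S3_S replicate 3 lay closest to a library of the earliest group, S1 replicate 3 (r = 0.912), although its correlations within the margin (0.855 and 0.853) were close to the lowest ones in S2 (0.856) and S3_C (0.860). Total FPKM was 426981 to 470320 per library. Read counts were not analysed here, so absolute depth is unknown. Depth relative to S1 replicate 1 was read from the most common ratio between values under 0.15 FPKM. It ranged from 0.664, in S3_S replicate 2, to 1. This is a rough estimate, since that ratio covered only 4.08% to 5.84% of the genes compared in each other library. In bulk tissue, fewer cells that express a gene and less RNA per cell cannot be told apart.

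All 10 SWEET genes carried the annotation terms carbohydrate transport and integral component of membrane, and 9 of 10 the term plasma membrane, which Bo7g091060 lacked. Sugar transmembrane transporter activity was annotated for Bo5g034370 alone, which was also the entry with the most transcript models, 5, of which 4 were assembled from the reads. The table gives none of the 10 a number within the SWEET family or an Arabidopsis counterpart, so no substrate or site of action is assigned to them here. Just inside the filter lay Bo7g091060, with 4 libraries at or above 1 FPKM, and Bo9g168970 and Bo2g011110 with 5 each. Just outside lay Bo2g146120, whose highest library had 0.309 FPKM, followed by Bo3g107090 (0.0629) and Bo9g110900 (0.0525), each with 0 libraries at 1 FPKM.

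Levels spanned a wide range. Averaged over the 12 libraries, Bo8g077260 stood at 61.8 FPKM, above 95.8% of tested genes. Bo7g097500 (15.9 FPKM), Bo5g034370 (15.9) and Bo3g111200 (10.2) formed a middle tier. The remaining members averaged 4.03 (Bo1g078350), 3.57 (Bo9g090800), 1.52 (Bo2g011110), 1.26 (Bo7g091060), 1.03 (Bo9g014010) and 0.846 FPKM (Bo9g168970). FPKM is scaled by transcript length, so these levels can be set side by side.

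**Figure D1:**
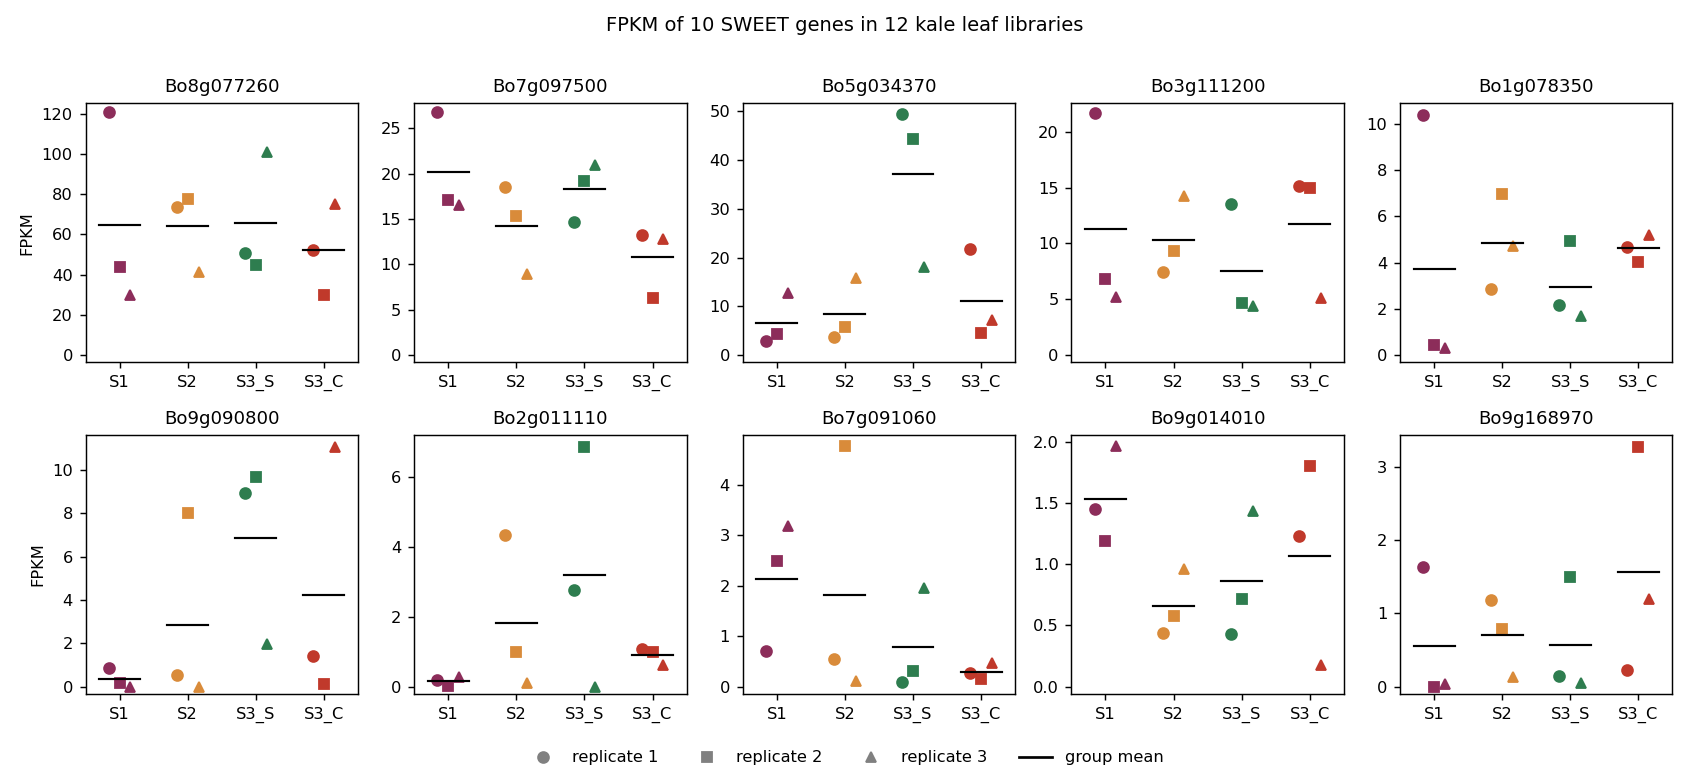
FPKM (linear axis from 0, one scale per panel) of 10 SWEET genes in each library of the 4 groups; symbols mark replicates and the horizontal line the group mean. Bo5g034370 averaged 37.2 FPKM in the green margin S3_S against 11.1 in the red center S3_C, while S1 replicate 1 stood far above the other S1 libraries for Bo8g077260, Bo3g111200 and Bo1g078350.

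Bo5g034370 had its highest values in the green margin. S3_S replicates 1, 2 and 3 had 49.3, 44.3 and 18.0 FPKM, against 21.7, 4.52 and 7.18 FPKM in the red center S3_C. In the whole leaves it was at 3.70, 5.71 and 15.9 FPKM in S2 and at 2.87, 4.43 and 12.7 FPKM in S1. All margin libraries thus lay above all libraries of S2 and S1. Between same-numbered libraries, which the labels do not tie together, the margin was above the center in 3 of 3 pairs, as for Bo7g097500. For Bo3g111200 and Bo9g168970 it was above in 0 of 3, and the share of all genes at 3 of 3 was not counted. The difference between margin and center was above 0 for 17861 of 27272 tested genes. For Bo5g034370 across numbers, S3_S replicate 3 (18.0) was below S3_C replicate 1 (21.7). Group means were, from high to low, S3_S (37.2 ± 16.8 FPKM, SD, n = 3), S3_C (11.1 ± 9.25), S2 (8.42 ± 6.52) and S1 (6.66 ± 5.26), and the last 3 differed from each other by less than 1 SD.

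In the margin against the center, the question is whether green and red tissue of a single leaf stage differ. Differences were tested with limma on log2(FPKM + 1) over all 12 libraries and 27272 genes, a scale that understates changes of genes with low values, and a gene was called at a Benjamini-Hochberg adjusted p under 0.05. The difference of Bo5g034370 was 1.80 (SE 0.670, 95% interval 0.322 to 3.28), and it did not pass (limma adjusted p = 0.476). It was 2.24 without S3_S replicate 3 and 1.37 without S3_C replicate 2, and was not called in either fit (adjusted p = 0.716 and 0.936). In a fit of these 6 libraries with the replicate number as a block, added after seeing the data, its SE was 0.437. Without the block the SE in these libraries was 0.597. With the block Bo5g034370 was not called (limma adjusted p = 0.283), in a fit that called 0% of all genes. Bo7g097500 was at 14.7, 19.2 and 21.0 FPKM in margin libraries and 13.3, 6.33 and 12.9 FPKM in center libraries. Its margin libraries all lay above its center libraries, and the difference of 0.75 (SE 0.336) did not pass either (limma adjusted p = 0.476). It was 0.44 without S3_C replicate 2 and 0.65 without S3_S replicate 3 (limma adjusted p = 0.936 and 0.716).

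Of the 10 SWEET genes, 0 were called between margin and center, where limma called 0% of all tested genes. At an unadjusted p under 0.05 there were 2 of 10, Bo5g034370 and Bo7g097500, against 10.4% of all genes. Groups without overlap and with higher margin values were found for 1 of 10, against 11.9% of all genes, and with lower margin values for 0 of 10, against 4.85%. With 10 genes, a count of 1 or 2 is near these shares of all genes. Over the 10, 6 differences were above 0, beside 17861 of 27272 tested genes. Their median was 0.32, beside 0.18 over all tested genes, a median that median-of-ratios scaling moved to 0.01. With that scaling the difference was 1.59 for Bo5g034370 and 0.54 for Bo7g097500.

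Bo5g034370 also stood higher in the margin than in the earlier leaves. Against S2 the difference was 2.12 (SE 0.670, 95% interval 0.639 to 3.59, limma adjusted p = 0.893), and against S1 it was 2.41 (SE 0.670, 0.935 to 3.89, limma adjusted p = 0.824). Neither passed, and the groups did not overlap in either comparison. Without S1 replicate 1 the difference from S1 was 2.03 (limma adjusted p = 0.159), and it was 2.47 (limma adjusted p = 0.0731) with S3_S replicate 3 also left out, an alternative chosen after seeing the data. These comparisons and the one with the center share the margin libraries and are not independent of each other.

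**Figure D2:**
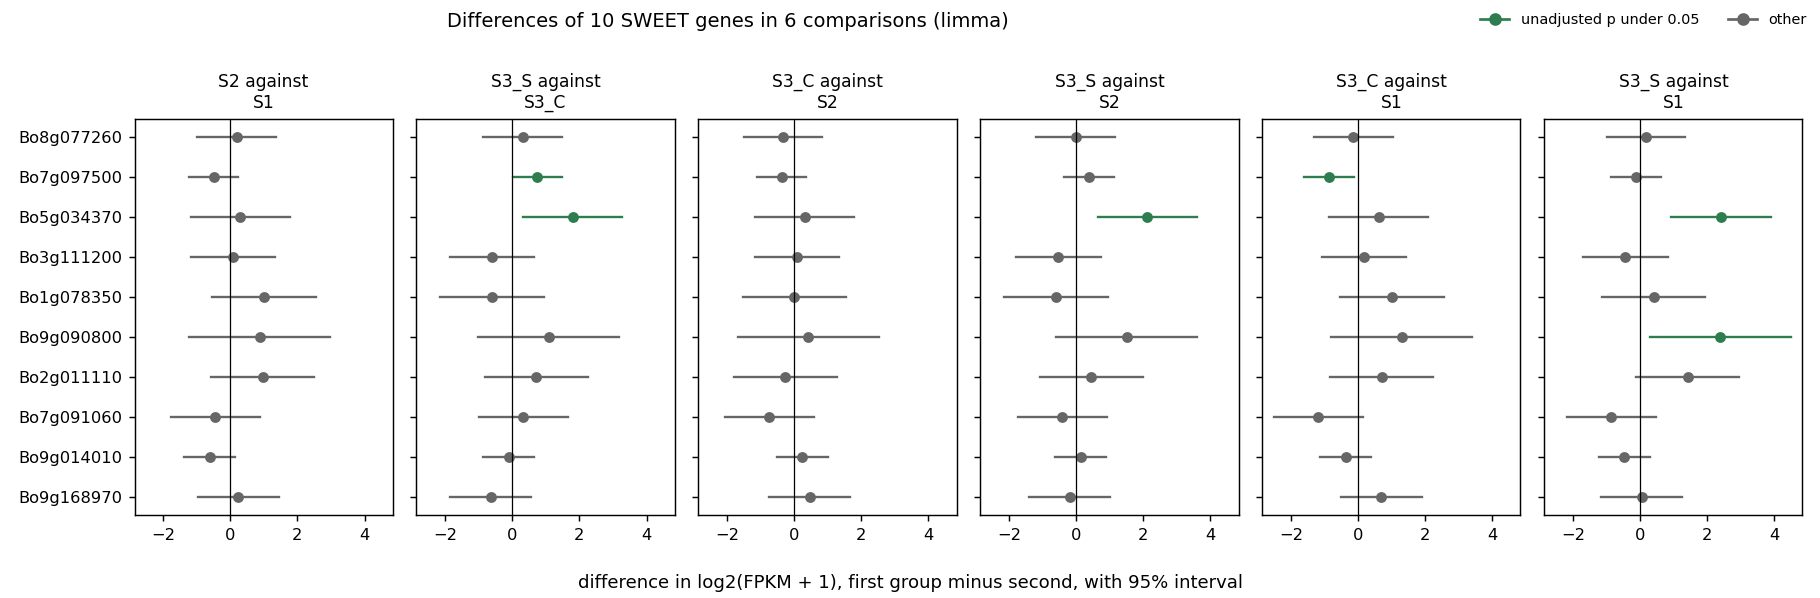
Differences in log2(FPKM + 1) with 95% intervals from limma for 10 SWEET genes, 1 panel per comparison, first named group minus second; green marks an unadjusted p under 0.05. The margin S3_S is the first group in the panels where Bo5g034370 is marked (1.80, 2.12 and 2.41), and 0 of the 60 differences passed an adjusted p of 0.05.

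Outside the margin Bo5g034370 showed small differences with wide intervals. The center S3_C exceeded S2 by 0.32 (SE 0.670, limma adjusted p = 1) and S1 by 0.61 (adjusted p = 0.593), and S2 exceeded S1 by 0.30 (adjusted p = 0.856). The upper ends of their 95% intervals were 1.79, 2.09 and 1.77 and each interval took in 0, so differences of that size lie within what these libraries allow. The sign of S2 against S1 turned to -0.089 without S1 replicate 1 and to -0.23 without S2 replicate 3, and that of S3_C against S2 to -0.27 without S3_C replicate 1 and to -0.076 without S2 replicate 1. The difference of S3_C from S1 was 0.027 without S3_C replicate 1 and 1.14 without S1 replicate 3.

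Bo9g090800 also had its highest group mean in the margin. It was at 8.95, 9.66 and 1.98 FPKM in margin libraries and 1.43, 0.129 and 11.1 FPKM in center libraries. In the whole leaves it was at 0.520, 8.01 and 0 FPKM in S2 and at 0.885, 0.180 and 0 FPKM in S1. Center replicate 3 was the highest of the 12 libraries and S2 replicate 2 lay within the range of the margin, and an entry listed at 0 is not read as absence of the transcript. Margin and S1 did not overlap, with a difference of 2.38 (SE 0.954) that did not pass (limma adjusted p = 0.824), and that was 3.25 without S1 replicate 1 and S3_S replicate 3 (adjusted p = 0.113). The 2 of 10 SWEET genes whose margin libraries all lay above all S1 libraries, Bo5g034370 and Bo9g090800, stand beside 5.74% of all genes, and 0 of 10 had them all below, beside 3.81%. Limma called 0.00733% of all genes in this comparison and 0 of 10 SWEET genes. Against S2, 1 of 10 had margin libraries all above, beside 11.2% of all genes, and 0 of 10 all below, beside 4.63%. Limma called 0 of 10 SWEET genes and 0% of all genes in that comparison.

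Bo1g078350 had low values in S1 apart from a single library. It was at 2.88, 6.95 and 4.71 FPKM in S2, at 2.15, 4.93 and 1.71 FPKM in S3_S and at 4.66, 4.02 and 5.21 FPKM in S3_C, against 10.4, 0.450 and 0.315 FPKM in S1. S1 replicate 1 was the highest of all 12 libraries and S1 replicates 2 and 3 were the lowest. With all libraries the differences from S1 were 1.01 in S2, 1.01 in S3_C and 0.41 in S3_S and did not pass (limma adjusted p = 0.495, 0.386 and 0.930). Without S1 replicate 3 they were 0.46, 0.46 and -0.13.

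Without S1 replicate 1, Bo1g078350 was called higher in S2 than in S1 (difference 2.02, limma adjusted p = 0.0111) and higher in S3_C than in S1 (2.02, adjusted p = 0.00871). It was the only SWEET gene called in either direction in these fits. Limma called 4.69% of all genes higher in S2 and 6.41% higher in S3_C. In either direction it called 15.6% and 23.1% of all genes. In S3_S against S1 the difference was then 1.42 and did not pass (limma adjusted p = 0.0838). There 0 of 10 SWEET genes were called, beside 0.363% of all genes called higher and 1.40% called in either direction. With S3_S replicate 3 left out as well the difference was 1.65 and was called (adjusted p = 0.0308). There 3.35% of all genes were called higher and 11.3% in either direction. In that fit the gene was also called in S2 (adjusted p = 0.00639, beside 5.63% of genes called higher) and in S3_C (0.00550, beside 7.08%). The shares called in either direction were 19.0% in S2 and 25.1% in S3_C.

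Bo8g077260, the most abundant SWEET gene, had overlapping values in all groups. It was at 50.8, 44.8 and 101 FPKM in S3_S and at 52.4, 29.97 and 75.1 FPKM in S3_C. In the whole leaves it was at 73.8, 77.9 and 41.5 FPKM in S2 and at 121, 43.9 and 29.7 FPKM in S1. S1 replicate 1 and S3_S replicate 3 were the highest of the 12. Means were 65.5 ± 30.8 FPKM in S3_S, 52.5 ± 22.6 in S3_C, 64.4 ± 19.9 in S2 and 64.8 ± 49.0 in S1 (SD, n = 3). The S1 mean was 36.8 FPKM without replicate 1, and the S3_S mean 47.8 FPKM without replicate 3, below the center mean.

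Bo7g097500, in the middle tier, had coefficients of variation of 17.8% to 36.1% within groups, and each of the other SWEET genes exceeded 36.1% in at least 1 group. Beside the margin and center values given above, it was at 18.5, 15.3 and 8.91 FPKM in S2 and at 26.8, 17.1 and 16.6 FPKM in S1. All center libraries lay below all S1 libraries, with a difference of -0.87 (SE 0.336) that did not pass (limma adjusted p = 0.214), and that was -0.56 without S3_C replicate 2 and -0.66 without S1 replicate 1 (adjusted p = 0.502 and 0.204). It was the only SWEET gene at an unadjusted p under 0.05 in S3_C against S1, where 21.9% of all genes reached it. Scaling by median-of-ratios factors moved the median of all genes in that comparison to 0.00, against -0.18 as deposited. The Bo7g097500 difference was -0.65 with that scaling.

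Bo3g111200 ran the other way from Bo5g034370 between the parts of the S3 leaf without a clear separation. It was at 13.5, 4.69 and 4.39 FPKM in margin libraries and 15.1, 14.9 and 5.08 FPKM in center libraries. In S2 it was at 7.45, 9.32 and 14.2 FPKM and in S1 at 21.7, 6.85 and 5.20 FPKM. Every pair of groups overlapped. The S1 mean was 11.2 FPKM with all libraries and 6.03 FPKM without replicate 1.

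The low members differed mostly by single libraries. Bo2g011110 ranged from 0 to 6.88 FPKM in the margin, 0.632 to 1.07 in the center, 0.0978 to 4.35 in S2 and 0.0321 to 0.282 in S1. Its center libraries all lay above those of S1 (difference 0.70, SE 0.696, limma adjusted p = 0.553). Bo7g091060 ranged from 0.0996 to 1.95 FPKM in the margin, 0.145 to 0.473 in the center, 0.1197 to 4.77 in S2 and 0.711 to 3.19 in S1. Its center libraries all lay below those of S1 (difference -1.18, SE 0.599, adjusted p = 0.260).

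Bo9g014010 ranged from 0.432 to 1.43 FPKM in the margin, 0.174 to 1.80 in the center, 0.440 to 0.964 in S2 and 1.19 to 1.97 in S1. All S2 libraries lay below all S1 libraries (difference -0.61, SE 0.344, limma adjusted p = 0.425). Bo9g168970 ranged from 0.0465 to 1.49 FPKM in the margin, 0.224 to 3.27 in the center, 0.135 to 1.18 in S2 and 0 to 1.63 in S1, and every pair of groups overlapped.

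Over the 10 genes, limma called 0 in S2 against S1 (0.00733% of all genes called), 0 in S3_C against S2 (0%) and 0 in S3_C against S1 (0.00733%). Those at an unadjusted p under 0.05 numbered 0 of 10 in S2 against S1 (12.1% of all genes), 0 of 10 in S3_C against S2 (1.23%), 1 of 10 in S3_C against S1, 1 of 10 in S3_S against S2 (3.29%) and 2 of 10 in S3_S against S1 (5.69%). In S2 against S1, S2 libraries lay all below S1 for 1 of 10 (6.70% of all genes) and all above for 0 of 10 (4.71%). In S3_C against S1, center libraries lay all below for 2 of 10 (10.1% of all genes) and all above for 1 of 10 (5.28%). In S3_C against S2 every SWEET gene overlapped, beside 1.50% of all genes with S3_C all above and 2.55% with S3_C all below.

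**Figure D3:**
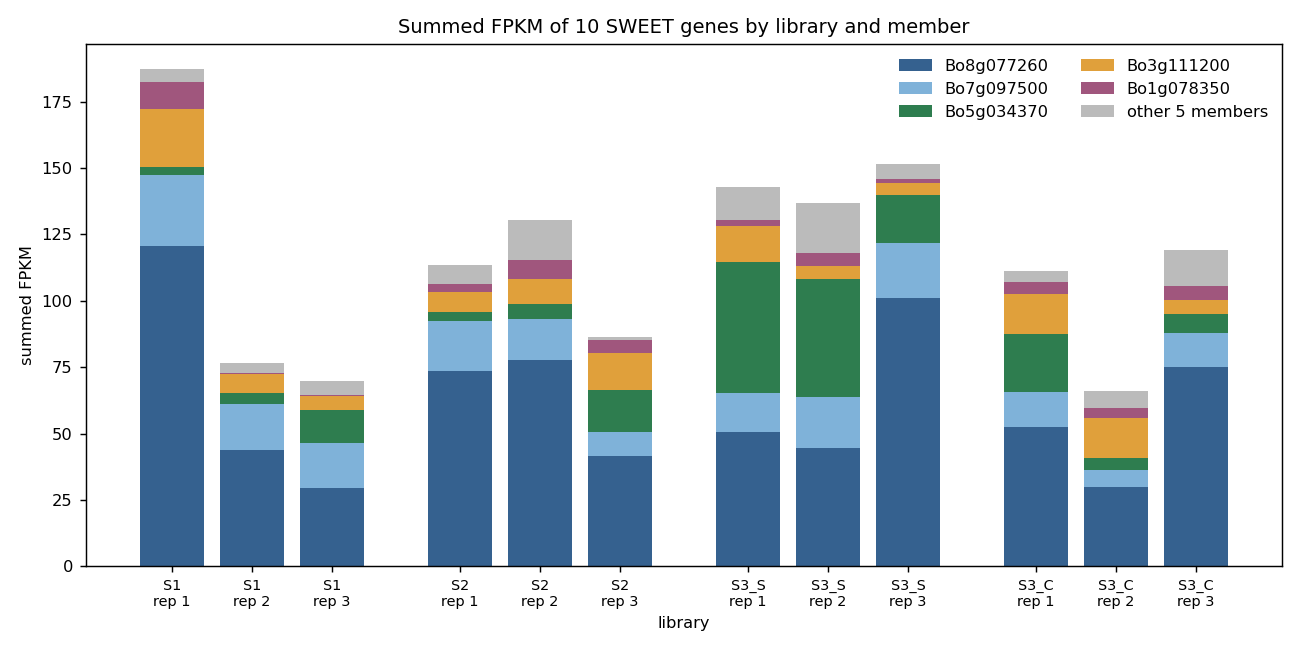
Summed FPKM of 10 SWEET genes in each of the 12 libraries, stacked by member, with groups set apart along the axis. S1 replicate 1 has the tallest bar (187 FPKM). Bo5g034370 makes up 34.5%, 32.4% and 11.9% of the bars of S3_S replicates 1, 2 and 3. Its share is 18.1% in S1 replicate 3, 18.3% in S2 replicate 3 and 19.5% in S3_C replicate 1, each above S3_S replicate 3. The lowest share is 1.53%, in S1 replicate 1.

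Summed over the 10 genes, SWEET transcripts came to 143, 137 and 151 FPKM in the margin and to 111, 66.1 and 119 FPKM in the center. The sum was 113, 130 and 86.6 FPKM in S2 and 187, 76.6 and 69.9 FPKM in S1. As deposited, all margin libraries lay above all center and S2 libraries. With median-of-ratios scaling the sums were 137, 129 and 140 in the margin and 132, 80.6 and 111 in the center, so that these groups overlapped, and the highest S2 library (128.9) was nearly level with the lowest margin library (129.1). S1 was split, with replicate 1 the highest of the 12 libraries and replicates 2 and 3, with S3_C replicate 2, the lowest 3.

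Bo8g077260 was the most abundant SWEET gene in each of the 12 libraries. Its share of the sum was 35.6%, 32.7% and 66.7% in the margin and 47.0%, 45.3% and 63.1% in the center. Bo5g034370 held 34.5%, 32.4% and 11.9% of the sum in the margin and 19.5%, 6.84% and 6.04% in the center. It held 3.27%, 4.38% and 18.3% in S2 and 1.53%, 5.78% and 18.1% in S1, so its share in the margin overlapped every other group. In S3_S replicates 1 and 2 both genes were therefore at nearly equal levels, and in the other 10 libraries Bo8g077260 was higher.

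The SWEET genes did not share a common profile. Over the 45 pairs of members, log2(FPKM + 1) across the 12 libraries correlated at a median r of -0.049, with 21 pairs above 0 and a range of -0.72 to 0.64. The highest was between Bo8g077260 and Bo7g097500 (r = 0.641, and 0.401 without S1 replicate 1 and S3_S replicate 3). The lowest was between Bo9g090800 and Bo9g014010 (r = -0.719, and -0.741 without them). These values describe 12 points that share libraries and groups. S1 replicate 1 held the highest value of 4 of the 10 genes (Bo8g077260, Bo7g097500, Bo3g111200 and Bo1g078350), while its Bo5g034370 value was the lowest of the 12.

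Genes most like Bo5g034370 were sought among 6423 tested genes with an informative description, by Pearson correlation over the 12 libraries. The 5 closest were Bo7g104970, described by an endoribonuclease XendoU domain (r = 0.863), Bo1g088040, a glutamyl-tRNA reductase of the tetrapyrrole pathway (0.861), Bo6g075940, a ketol-acid reductoisomerase of branched-chain amino acid synthesis (0.859), Bo5g139840, a phosphoinositide phospholipase C (0.857), and EMB976, a TPR-like protein (0.855). Without S1 replicate 1 and S3_S replicate 3 these correlations were 0.906, 0.893, 0.896, 0.841 and 0.824. Their amplitudes were smaller: Bo7g104970 averaged 26.2 ± 2.62 FPKM in the margin, against 15.3 ± 3.56 in the center, and Bo1g088040 4.91 ± 2.01 and 2.48 ± 1.57 (SD, n = 3).

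**Figure D4:**
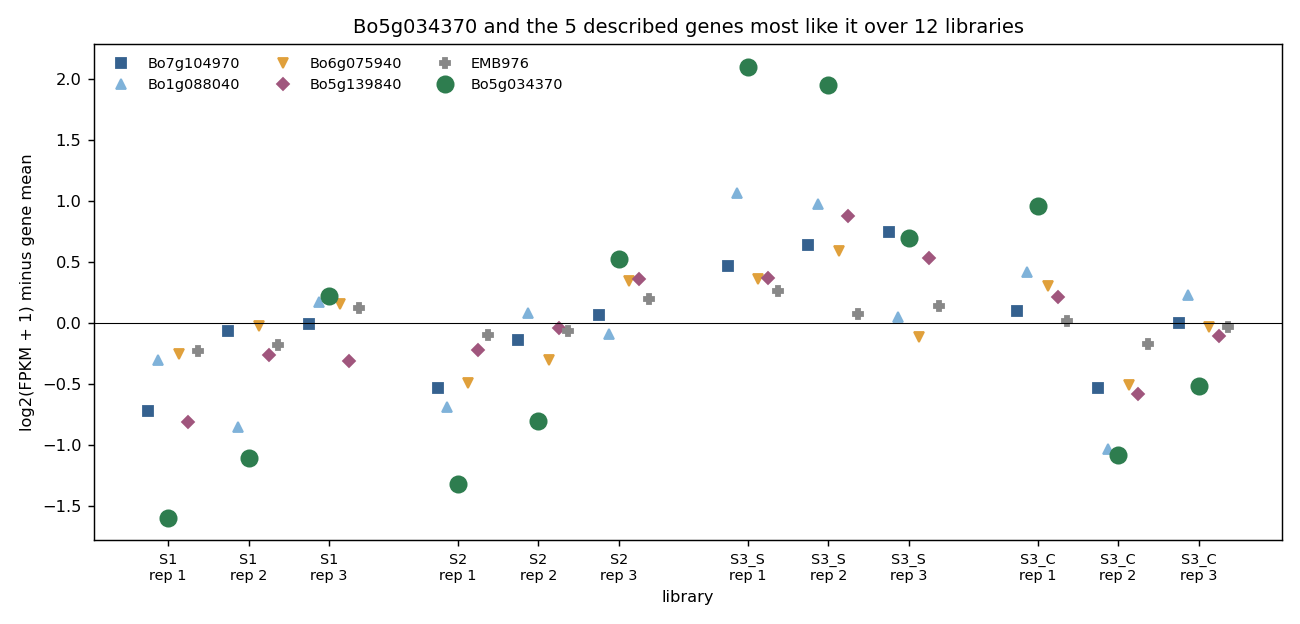
Log2(FPKM + 1) minus each gene's mean over 12 libraries for Bo5g034370 (large circles) and the 5 described genes most correlated with it, by library. All 6 are above their mean in S3_S replicates 1 and 2, where Bo5g034370 is highest, which the choice of genes by correlation favours. Bo5g034370 has the widest spread, from 2.87 FPKM in S1 replicate 1 to 49.3 FPKM in S3_S replicate 1.

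Bo8g077260 had other neighbours: MGT6, a magnesium transporter (r = 0.836), Bo8g077250, an HXXXD-type acyl-transferase (0.816), the alpha-mannosidase Bo2g012270 (0.816), the squalene epoxidase SQE3 (0.811) and the oligopeptide transporter ATOPT4 (0.780). The identifier Bo8g077250 directly precedes that of Bo8g077260 in the annotation's numbering. That entry was much lower, at 1.72 FPKM on average over the 12 libraries. Without S1 replicate 1 and S3_S replicate 3 the correlation of Bo8g077260 with MGT6 was 0.873 and with Bo8g077250 0.733.

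A further 4 entries, described as Nodulin MtN3 family proteins, have Arabidopsis SWEET counterparts but fall outside the selection by description. SWEET2, whose Arabidopsis counterpart is a vacuolar carrier, was the single tested entry among these. It was at 2.48, 1.70 and 0.759 FPKM in margin libraries and 5.28, 5.80 and 3.25 FPKM in center libraries, so that all margin libraries lay below all center libraries. The difference was -1.15 and did not pass (limma adjusted p = 0.486). In S2 it was at 1.01, 4.74 and 5.99 FPKM and in S1 at 4.50, 0.558 and 0.228 FPKM. SWEET9, a nectary gene in Arabidopsis, SWEET10 and the SWEET16 homolog Bo1g123330 reached at most 0.0999, 0.0522 and 0.0545 FPKM. The gene named SWEETIE is described as a HEAT repeat protein and is no SWEET carrier.

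Other steps of leaf sugar handling were looked at through 8 lists: sucrose symporters, cell wall and vacuolar invertases, sucrose synthases, sucrose phosphate synthases and phosphatases, hexose symporters, tonoplast carriers and plastid translocators. Arabidopsis identifiers are given for 16.9% of entries, so the lists are thinly filled: 23 entries were matched and 15 tested, and no sucrose symporter or phloem marker was matched. Limma called 0 of the 15 in each of the 6 comparisons, where it called 0% to 0.00733% of all tested genes. In the margin against the center, 10 of 15 differences were above 0, beside 17861 of 27272 tested genes. The median was 0.22 beside 0.18 for all tested genes, and 6 of the 15 are sucrose synthases. Margin libraries lay all above center libraries for 2 of 15, beside 11.9% of all genes. These were the sucrose synthases Bo6g087800 and Bo6g116770, which averaged 0.944 and 1.18 FPKM in the margin. Margin libraries lay all below for 1 of 15, Bo7g098770, beside 4.85% of all genes. In S2 against S1, 5 of 15 were above 0, beside 11698 of the 27272 tested genes (median -0.51 beside -0.09). In S3_C against S1 there were 6 of 15, beside 10204 (-0.52 beside -0.18). S3_S against S1 had 6 of 15 above 0, beside 13199 (-0.19 beside -0.02). S3_S against S2 had 11 of 15, beside 16397 (0.20 beside 0.10). S3_C against S2 had 8 of 15, beside 10036 (0.0004 beside -0.09).

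Among sugar importers, Bo7g098770, the homolog of the Arabidopsis hexose symporter STP3, was at 17.1, 13.3 and 8.29 FPKM in the margin, all below the center at 23.3, 43.3 and 38.0 FPKM (limma adjusted p = 0.510). In S1 it was at 40.1 FPKM in replicate 1 and 1.88 and 2.02 in replicates 2 and 3. STP1, the hexose symporter with the highest mean, overlapped, at 35.4 ± 11.6 FPKM in the margin, against 31.5 ± 26.8 in the center. On the vacuole membrane, TMT2 averaged 17.6 ± 5.33 and 16.3 ± 1.93 FPKM and the glucose carrier homolog Bo2g013390 16.4 ± 3.61 and 22.0 ± 3.47 in margin and center (SD, n = 3).

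Among the enzymes, the sucrose phosphate synthase ATSPS4F, an enzyme of sucrose synthesis, averaged 13.5 ± 10.6 FPKM in the margin, against 38.2 ± 29.3 in the center. The most abundant sucrose synthase, Bo9g151470, which cleaves sucrose, averaged 30.8 ± 19.6 and 21.0 ± 9.01 FPKM, and SUS3 17.7 ± 17.2 and 20.8 ± 12.3. Of the 6 tested sucrose synthases, 5 had a margin against center difference above 0, and only SUS3 was below. The cell wall invertase ATFRUCT5 averaged 5.12 ± 1.65 and 4.42 ± 2.14 FPKM. At the chloroplast envelope, CUE1, a phosphoenolpyruvate translocator, averaged 42.1 ± 5.31 FPKM in the margin, against 29.5 ± 9.44 in the center, and the glucose-6-phosphate translocator GPT2 0.744 ± 0.187 and 4.89 ± 4.36 (SD, n = 3).

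**Figure D5:**
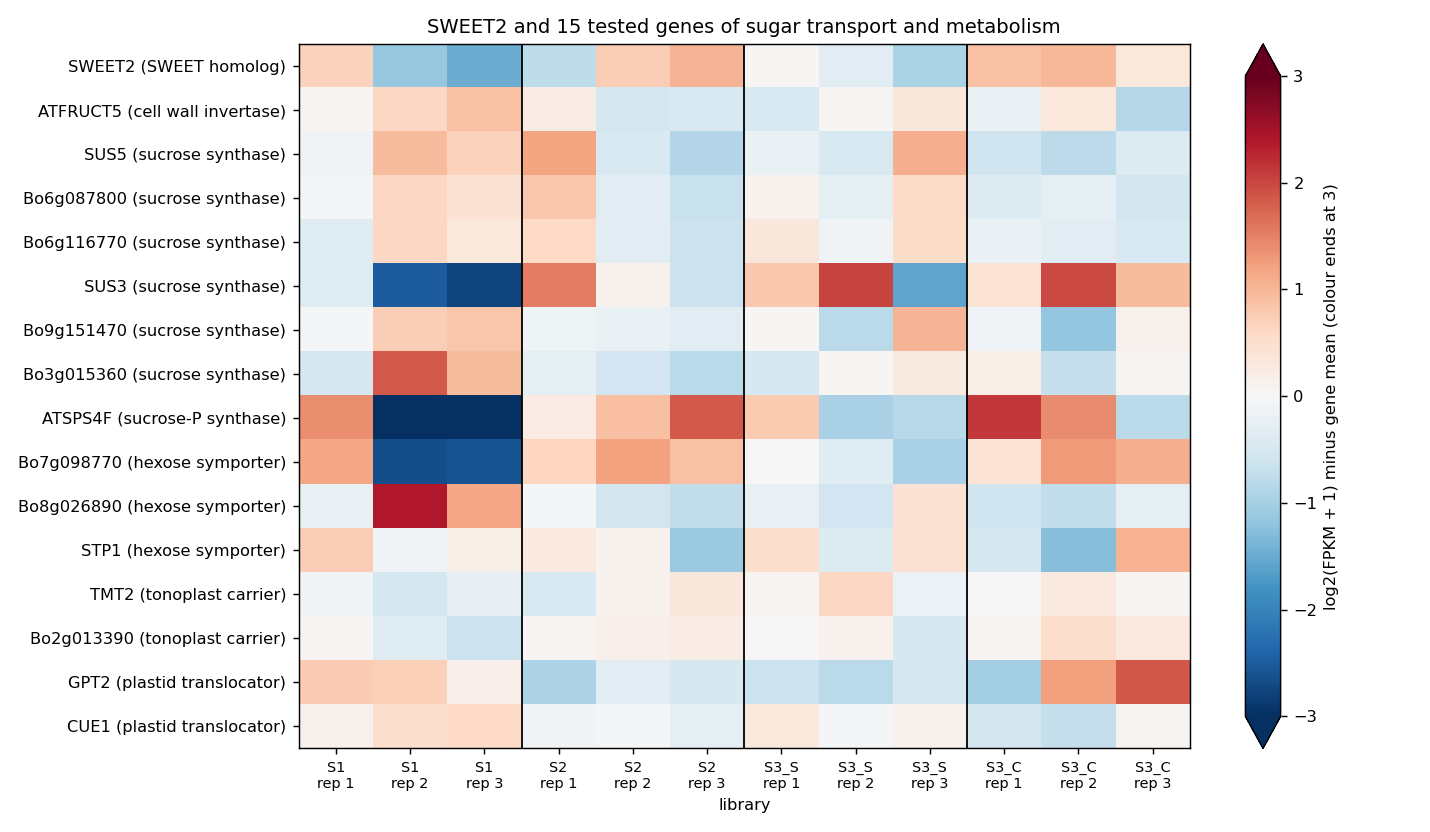
Colour map of log2(FPKM + 1) minus each gene's mean over 12 libraries (red above, blue below, colour ends at 3) for SWEET2 and 15 tested genes of sugar transport and metabolism; columns are libraries by group. ATSPS4F, Bo7g098770 and SUS3 are lower in S1 replicates 2 and 3 than in S1 replicate 1, where Bo7g098770 was at 40.1 FPKM.

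Few markers of leaf tissues could be matched. Of 5 xylem markers 3 were matched and tested, and their summed level was 2.00 to 12.2 FPKM in the margin, 0.955 to 2.35 in the center, 0.461 to 2.53 in S2 and 1.29 to 8.41 in S1, with the highest value in S3_S replicate 3. The mesophyll genes LHCA4 and GAPB, 2 matched of 5 listed, summed to 1095 to 1771 FPKM in the margin, 1424 to 3529 in the center, 1168 to 3388 in S2 and 273 to 2398 in S1. SEN1, the 1 matched of 5 markers of leaf senescence, was at 4.70 to 23.6 FPKM in the margin, below all center libraries at 55.9 to 543, and at 40.0 to 307 in S2. In S1 replicates 1, 2 and 3 it was at 257, 0.172 and 0.149 FPKM. In the same order, LHCA4 was at 2047, 262 and 229 FPKM and GAPB at 351, 23.5 and 43.8 FPKM. The part of these markers in the SWEET values was not tested.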

How the data were processed

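Per the labels' protocols, poly(A) RNA of the 12 kale leaf libraries was sequenced as read pairs (Illumina HiSeq). The authors deposited a table of FPKM per gene and library, per the file header. HISAT2 2.0, StringTie 1.3.0 and Bowtie 0.12.2 are named, without their roles, in the submitters' processing notes. For genome build, annotation release and filters the answer is "not given in the sources used here", and no gene positions or sequences were used, since the RefSeq table at hand shares 0 identifiers with the deposited table.

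The 27272 entries that reached 1 FPKM in 3 or more of the 12 libraries entered a limma fit (version 3.58.1, R 4.3.3) of log2(FPKM + 1) to the 4 group means over all libraries. Moderated tests were two-sided, with the prior variance following the mean level. Benjamini-Hochberg adjustment ran over all tested genes of each of the 6 comparisons, with calls at 0.05. The fit was tested on simulated data with independent noise for each gene and no deviations shared within a library. There it called 21 to 28 of 50 genes changed by a log2 difference of 2, depending on the comparison. The text names all 10 SWEET genes, the 2 most abundant tested genes and any called gene of each sugar list, and the 5 described genes most like Bo8g077260 and Bo5g034370. SWEET2, markers and the sugar list genes without overlap between margin and center were added. Lists were matched by Arabidopsis identifier or description. The members and lists were chosen with earlier results of these data known. Alternatives were other pseudocounts (0.1 and 5), no filter, median-of-ratios scaling, the replicate number as a block, the compared groups alone and each library left out. Equal replicate numbers did not pair the libraries across all groups: the deviations of same-numbered libraries from their group means correlated at -0.348 to 0.379, above 0.1 in 8 of 18 pairs. In S3_S and S3_C alone, all 3 pairs exceeded 0.1 (0.268, 0.195 and 0.158), although the labels name nothing that a number shares. The printed differences come from the fit without a block, and a fit of the compared groups alone with the block was added after seeing the data.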

Additional observations from a re-analysis of the deposited data

How the results depend on the processing

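The count of called SWEET genes was 0 in each of 6 comparisons, and 0 in 115 of 120 refits under 20 other settings. In the other 5 it was 1, always Bo1g078350. Leaving out 1 library gave 0 to 1 in S2 against S1 and in S3_C against S1, with 1 only without S1 replicate 1, and 0 in the other comparisons. Without that library limma called 15.6% of all genes in S2 against S1 and 23.1% in S3_C against S1. Leaving out S1 replicate 1 and S3_S replicate 3 together, an alternative chosen after seeing the data, gave 1 in S2, in S3_C and in S3_S against S1. There limma called 19.0%, 25.1% and 11.3% of all genes. The Bo1g078350 differences in these fits were 2.02, 2.02 and 1.65. With the replicate number as a block, the count was 0 in each comparison, where limma called 0% to 0.00367% of all genes. The Bo5g034370 difference between margin and center was 1.80 in that fit (limma adjusted p = 0.511). With the block and the compared groups alone the count was also 0 in each. That fit called 0% of all genes in each comparison, so it cannot show whether the block matters for calls. For Bo5g034370 between margin and center it gave a limma adjusted p of 0.283.

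Without 1 library in turn, the Bo5g034370 difference lay between 1.37 and 2.39 for S3_S against S3_C, 1.72 and 2.64 for S3_S against S2, and 2.03 and 2.94 for S3_S against S1. It changed sign for S2 against S1 (-0.23 to 0.82, and -0.089 without both libraries) and for S3_C against S2 (-0.27 to 0.845), as did Bo1g078350 for S3_S against S1 (-0.13 to 1.42). Of 1200 refitted differences of SWEET genes, 64 changed sign and 5 were newly called. With 3 libraries a group and no read counts, precision at low FPKM is not known.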
